A study of Mus musculus with 15 samples.

Results

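The 10 genes described here move chloride, bicarbonate, sodium, potassium or protons across airway epithelium: Slc26a4, Slc26a9, Cftr, Ano1, Scnn1a, Scnn1b, Scnn1g, Slc12a2, Atp12a and Kcnn4. They were found as the probe sets whose annotation names exactly 1 of them, and each gene was read from its brightest one, by mean log2(intensity + 16) over all arrays. Of the 10 genes 9 were measured, by 14 probe sets in all, among 18193 genes and 45101 probe sets of the series. Slc26a9, an anion transporter of the same family as Slc26a4, had no probe set under its name and is not analysed here.

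RNA of mouse lung of mixed background was hybridised to 15 Affymetrix arrays, 3 per group, in 2 sets of different age. The older set held lung tumours of double mutant mice and wild type lungs, all at 12 months. The younger set held lungs of double mutant, single mutant and wild type mice, all at 7 months, an age the series design places before tumours begin. The double mutants were Smad4d/d and also carried d/d alleles of a second gene, and the single mutants carried the d/d alleles of that second gene without those of Smad4. Smad4 encodes the partner that the receptor-regulated SMAD proteins share in TGF-beta and BMP signalling. Each lung sample was a part of a whole lung and each tumour sample a part of 1 tumour. The promoter or cell type that drove the recombination, and whether the wild type mice carried a recombinase, are not given in the sources used here. For 2 of the 3 tumours the labels give a number of the kind the wild type mice have, and for 1 they give none, so p-values measure the spread between these samples.

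Values are intensities on a linear scale in arbitrary units, already brought by the authors to a common level: array medians were 98 to 99.5 in the tumours, against 95.7 to 98.1 in wild type lung of 12 months, and 90.9 to 94.3 over the 7-month arrays. Replicate arrays correlated at 0.982 to 0.996. Smad4 itself was not lower in the mutant groups: its difference was 0.22 on the log2 scale in tumours (adjusted p = 0.213) and 0.03 in double mutant lungs (adjusted p = 0.799), so its level does not check the genotype. The control probes for 18S rRNA gave 1700 ± 504 in the 3 tumours, against 6381 ± 778 in wild type lung of that age (SD, n = 3 each). Xist, made from the inactive X, read 64.1 to 237 in the 3 tumours and 6786, 69.8 and 6917 in the wild type lungs of 12 months, so sex and tissue partly go together there. At 7 months Xist read 48.1 on wild type array 3 and 3678 or more on the other 8, while the Y-linked Kdm5d read 109 to 242 on all 9. The 8 arrays thus read both, the labels do not say that a sample holds several mice, and whether any does was not tested; if so, the SDs and p-values at 7 months describe pools. Sftpc, a marker of alveolar type 2 cells, was at 11722 ± 329 in tumours and at 11930 ± 301 in wild type lung. The 7 measured type 2 markers had a median log2 difference of -0.39 in tumours, with none called. The tumour pieces thus gave a lung epithelial signal, and which cells it came from was not tested.

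Airway surface liquid is set by the balance of anion secretion and sodium absorption. In secreting cells, the basolateral cotransporter encoded by Slc12a2 loads chloride with sodium and potassium, potassium channels such as the one encoded by Kcnn4 keep the cell negative inside, and apical channels encoded by Cftr (opened by cAMP and kinase) and Ano1 (opened by calcium) let chloride out. Pendrin, the product of Slc26a4, exchanges chloride for bicarbonate or thiocyanate at the apical face. The 3 subunits alpha, beta and gamma of the epithelial sodium channel, encoded by Scnn1a, Scnn1b and Scnn1g, let sodium in, also in alveolar epithelium, and the nongastric proton pump encoded by Atp12a exports acid in exchange for potassium. In whole tissue RNA, fewer cells of a type and less RNA per cell cannot be told apart.

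The promoters of 5 genes are shown: Cftr and Ano1, which were called together at 7 months, Slc26a4 and Scnn1g, which were called in tumours, and Scnn1b, called in no comparison, as the neighbour of Scnn1g on its chromosome. Each window runs from 250 bases before to 50 bases after an annotated start, from RefSeq on assembly GRCm38.p6. The table held 7 of the 10 genes, and Scnn1a, Slc12a2 and Atp12a were among those not in it. Windows lie at chr12:31559935-31560234 on the minus strand for Slc26a4, chr6:18170437-18170736 on the plus strand for Cftr, chr7:144738524-144738823 on the minus strand for Ano1, chr7:121864788-121865087 on the plus strand for Scnn1b and chr7:121734229-121734528 on the plus strand for Scnn1g. The Scnn1b and Scnn1g windows start 130559 bases apart. The Ano1 window lies inside the gene, which on this strand begins at base 144752026, so it shows an internal start. Capitals mark every match, on either strand, of 9 motifs searched.
Slc26a4: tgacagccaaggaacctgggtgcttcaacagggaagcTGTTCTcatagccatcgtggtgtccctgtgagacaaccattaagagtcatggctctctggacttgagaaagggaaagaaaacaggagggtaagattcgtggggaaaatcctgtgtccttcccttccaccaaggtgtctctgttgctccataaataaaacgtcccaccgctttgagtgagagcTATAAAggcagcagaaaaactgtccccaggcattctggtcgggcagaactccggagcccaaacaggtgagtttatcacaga
Cftr: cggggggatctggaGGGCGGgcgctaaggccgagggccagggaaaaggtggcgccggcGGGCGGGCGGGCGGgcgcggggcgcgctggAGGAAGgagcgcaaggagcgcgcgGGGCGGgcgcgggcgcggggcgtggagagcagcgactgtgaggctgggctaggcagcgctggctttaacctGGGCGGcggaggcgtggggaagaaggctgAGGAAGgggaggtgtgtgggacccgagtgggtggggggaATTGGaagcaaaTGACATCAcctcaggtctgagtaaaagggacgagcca
Ano1: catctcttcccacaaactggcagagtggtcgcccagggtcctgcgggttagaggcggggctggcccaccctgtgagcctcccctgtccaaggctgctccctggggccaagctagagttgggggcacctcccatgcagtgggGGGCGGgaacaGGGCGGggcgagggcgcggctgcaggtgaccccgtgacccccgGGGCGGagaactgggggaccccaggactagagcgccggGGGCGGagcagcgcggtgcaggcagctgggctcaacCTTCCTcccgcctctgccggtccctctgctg
Scnn1b: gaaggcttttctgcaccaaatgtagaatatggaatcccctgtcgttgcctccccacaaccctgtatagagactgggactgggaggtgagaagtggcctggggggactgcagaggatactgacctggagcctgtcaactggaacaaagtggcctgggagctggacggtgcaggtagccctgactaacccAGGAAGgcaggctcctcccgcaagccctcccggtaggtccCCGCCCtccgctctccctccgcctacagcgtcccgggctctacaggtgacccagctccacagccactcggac
Scnn1g: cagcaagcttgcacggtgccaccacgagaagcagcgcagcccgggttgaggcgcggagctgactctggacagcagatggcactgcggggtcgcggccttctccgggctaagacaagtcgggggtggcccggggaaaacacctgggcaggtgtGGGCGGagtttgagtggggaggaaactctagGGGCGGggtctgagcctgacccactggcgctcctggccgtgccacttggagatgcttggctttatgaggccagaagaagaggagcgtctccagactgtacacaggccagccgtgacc
The motifs were TATAAA (the TATA box, found in 13.6% of the 32851 promoters of the table), GGGCGG (the GC box, 35.7%), CCAAT (37.4%), AGGAAG (an ETS site, 35.4%), TGACNTCA (a cAMP response element, 8.83%), TGTTCT (a glucocorticoid receptor half-site, 19%), TTGTTTAC (a FOXO site, 1.23%), the STAT6 site (6.95%) and GTCTAGAC (a SMAD palindrome, 0.213%).

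The Slc26a4 window, with 50% G and C, held a TATA box whose first base lies 31 bases before the start and a TGTTCT match 213 bases before it. The Cftr and Ano1 windows, the latter at an internal start, belong to the 2 genes that rose in single mutant lungs. These windows had 71.3% and 71.7% G and C, against a median of 52.7% over all promoters. Cftr had 6 GC boxes, 3 of them overlapping each other, 2 AGGAAG matches, the reverse of CCAAT and 1 cAMP response element just after the start, while Ano1 had 4 GC boxes and the reverse of AGGAAG. Scnn1b had 1 GC box on the minus strand and 1 AGGAAG match at 61.7% G and C, and Scnn1g had 2 GC boxes at 64.7%. None of these 5 windows held the FOXO, STAT6 or SMAD letters searched. These matches describe letters in the windows and were not tested as sites.

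Across the measured genes, 3 of 9 passed the test in tumours against wild type lung of 12 months (limma with Benjamini-Hochberg adjustment over all 18193 genes, called at an adjusted p under 0.05): Slc12a2 was higher, and Slc26a4 and Scnn1g were lower. Over all genes 15.2% were called in that comparison, 9.23% higher and 6.02% lower. In single mutant against wild type lungs of 7 months 2 of 9 were called, Cftr and Ano1, both higher, where the whole table had 15.2% called, 9.79% higher and 5.4% lower. In double mutant against wild type lungs none of the 9 was called by limma (7.81% of all genes, 6.42% higher and 1.39% lower). Between the double and the single mutant lungs 2 of 9 were called, Cftr and Ano1 again, both lower in double mutant lungs, where 1.76% of all genes were called, 0.918% higher and 0.841% lower. Groups did not overlap for 4 of 9 genes in tumours (1 higher, 3 lower), 4 in double mutant lungs (2 higher, 2 lower), 5 in single mutant lungs (4 higher, 1 lower) and 5 in double against single mutant lungs (1 higher, 4 lower). The same held for 37.5%, 26.1%, 35.6% and 28.6% of all genes in those comparisons, split into 20.5% higher and 17% lower, 15.2% and 10.9%, 20% and 15.6%, and 14.4% and 14.2%. Counts over 9 genes are a description, and the calls in tumours and in single mutant lungs lie near what such shares give for 9 genes. The median difference of the 9 genes was -0.08 in tumours, -0.06 in double mutant lungs and 0.08 in single mutant lungs on the log2 scale, against 0.01, 0.01 and 0.02 over all genes.

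**Figure D1:**
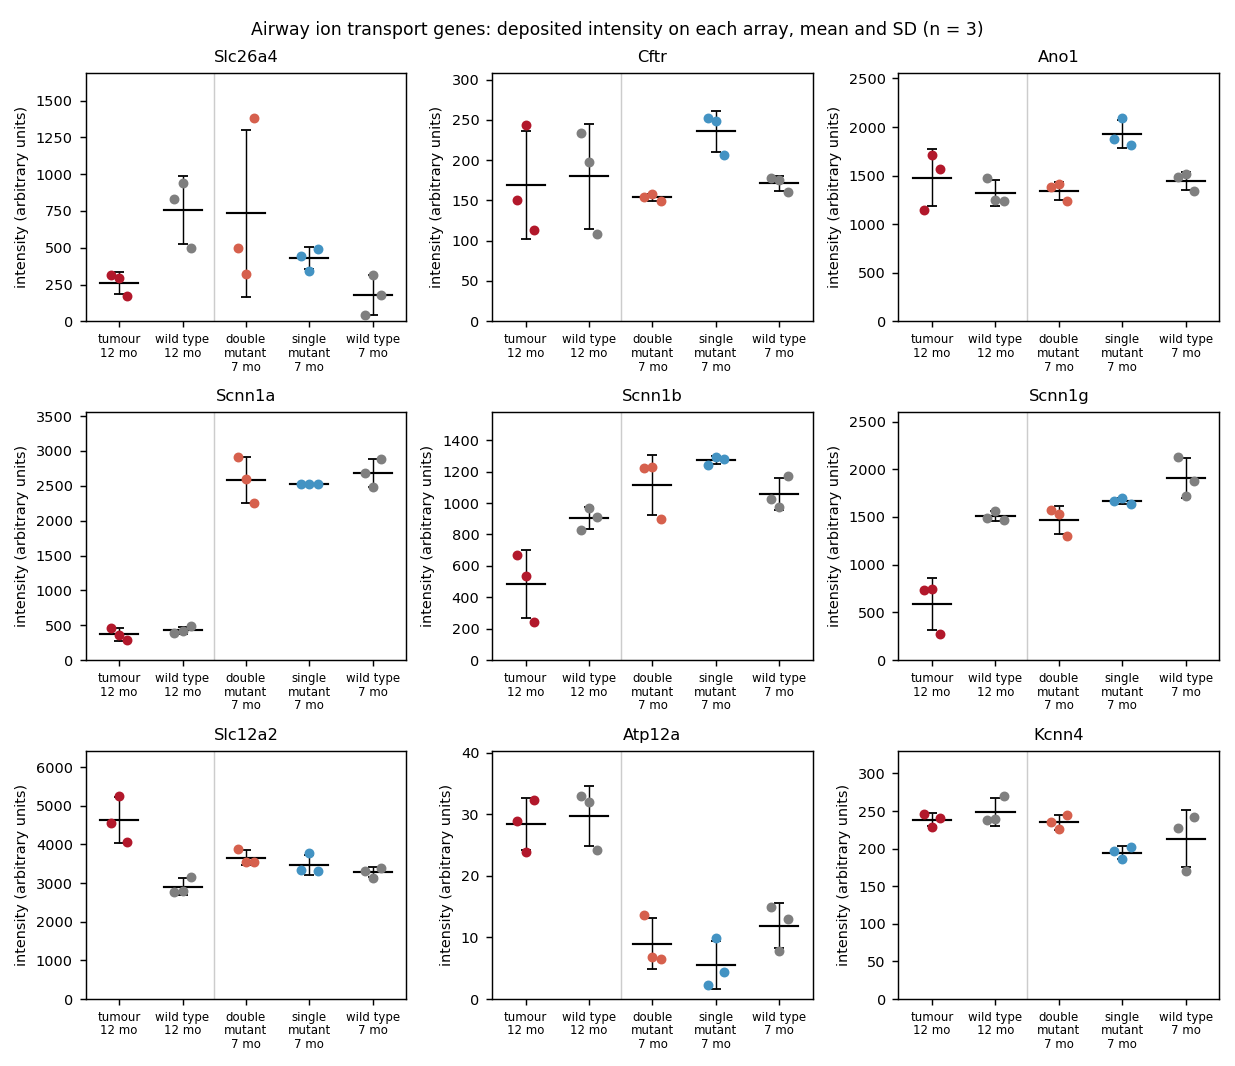
Intensity in arbitrary units on each of the 15 arrays for the 9 measured genes, 1 panel per gene with its own axis, with group mean and SD (n = 3). Slc26a4 and Scnn1g sit lower and Slc12a2 higher in the 12-month tumours than in wild type lungs of that age, Cftr and Ano1 stand highest in the single mutant lungs at 7 months, and Scnn1a is high in every 7-month group.

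Slc26a4 fell in tumours, and lay above wild type in the younger mutant lungs without passing the test there. In tumours it read 312, 295 and 175, against 831, 942 and 497 in wild type lungs of 12 months. All 3 tumours lay below all 3 wild type lungs, and the gene fell 2.78-fold (log2 difference -1.47 ± 0.30, SE; 95% interval -2.21 to -0.74; adjusted p = 0.0270). At 7 months it read 499, 321 and 1382 in double mutant lungs and 447, 344 and 490 in single mutant lungs, against 39.4, 313 and 176 in wild type lungs. Both mutant groups lay wholly above wild type, by narrow margins at their nearest arrays, 321 in double mutant and 344 in single mutant lungs against 313. The spread was wide, and neither difference passed the test: double mutant lungs were 4.11-fold higher (2.04 ± 0.68; interval 0.49 to 3.59; adjusted p = 0.112) and single mutant lungs 2.89-fold higher (1.53 ± 0.68; interval -0.02 to 3.08; adjusted p = 0.177). Without wild type array 1, the one at 39.4, these differences were 1.31 and 0.80, and without double mutant array 3, the one at 1382, the first was 1.46. The 2 mutant groups overlapped each other (0.51 ± 0.68; interval -1.04 to 2.06; adjusted p = 0.743).

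The difference between the 2 effects on Slc26a4 was itself tested. The tumour effect minus the double mutant effect, each against wild type of its own age, was -3.51 ± 0.84 (interval -5.34 to -1.69; adjusted p = 0.0436), and Slc26a4 was the only one of the 9 genes called in this contrast, where 3.17% of all genes were called, 1.75% higher and 1.41% lower. The call was lost when single arrays were left out: the difference was -3.78 to -2.79, and the adjusted p 0.0588 to 0.104, without tumour array 1 or 3, any one wild type array of 12 months, double mutant array 1 or 3, or wild type array 1 or 3 of 7 months. Age, tumour against whole lung, and the 2 array sets differ together in this contrast and cannot be told apart. Slc26a4 was also lower in wild type lungs of 7 months than in those of 12 months, by 2.30 on the log2 scale or 4.92-fold. Counting Slc26a4 itself, 188 of the 18193 genes had a gap this large or larger in either direction, given here as a description. Ordered by group mean, Slc26a4 was lowest in 7-month wild type lung (176 ± 137), then in tumours (260 ± 74.9), single mutant lungs (427 ± 74.8), double mutant lungs (734 ± 568) and 12-month wild type lungs (757 ± 231). Neighbours in this order overlapped, except tumours and single mutant lungs.

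Cftr rose in single mutant lungs. It read 155, 158 and 150 in double mutant lungs and 252, 249 and 206 in single mutant lungs, against 178, 175 and 161 in wild type lungs of 7 months. The 3 groups did not overlap: single mutant arrays were highest, wild type next and double mutant arrays lowest. Single mutant lungs were 1.34-fold above wild type (0.42 ± 0.09; interval 0.23 to 0.62; adjusted p = 0.0121). Double mutant lungs were lower than single mutant lungs by 0.56 ± 0.09 on the log2 scale (interval -0.75 to -0.37; adjusted p = 0.0187), while their difference from wild type, -0.14 ± 0.09, did not pass (adjusted p = 0.390). In tumours Cftr read 150, 243 and 113, against 234, 198 and 108 in wild type lungs of 12 months. These groups overlapped over their whole range (-0.08 ± 0.35; interval -0.92 to 0.76; adjusted p = 0.903), and the interval does not exclude a change of the size seen in single mutant lungs.

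Ano1 also rose in single mutant lungs. It read 1382, 1410 and 1238 in double mutant lungs and 1878, 2093 and 1817 in single mutant lungs, against 1481, 1515 and 1343 in wild type lungs. All single mutant arrays lay above all others, and double mutant and wild type arrays overlapped. Single mutant lungs were 1.33-fold above wild type (0.41 ± 0.09; interval 0.22 to 0.61; adjusted p = 0.0136), and double mutant lungs were lower than single mutant lungs by 0.52 ± 0.09 (interval -0.71 to -0.32; adjusted p = 0.0254). Tumours read 1147, 1710 and 1570, against 1474, 1251 and 1242 in wild type lungs of 12 months, again overlapping (0.14 ± 0.17; interval -0.26 to 0.54; adjusted p = 0.632). The double mutant and single mutant comparisons share the wild type arrays, and the direct comparison of the 2 mutants shares the single mutant arrays with one of them.

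The calls of Cftr and Ano1 rested on few arrays. Without single mutant array 1 the Cftr rise had an adjusted p of 0.0525, and without single mutant array 2 the rises of Cftr and Ano1 had adjusted p-values of 0.0508 and 0.0527. In the comparison of double with single mutant lungs both calls were lost without double mutant array 1 or 3 or single mutant array 1 or 2 (adjusted p 0.0590 to 0.0989), and that of Ano1 also without double mutant array 2 (0.0515) or single mutant array 3 (0.0612). Fitting all 15 arrays in 1 model, which adds the wider spread of the 12-month arrays, gave adjusted p-values of 0.330 for Cftr and 0.0603 for Ano1 in single mutant lungs, and 0.332 and 0.0911 in double against single mutant lungs. The differences themselves moved less: over 18 fits the Cftr rise stayed between 0.30 and 0.51 and the Ano1 rise between 0.35 and 0.45.

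**Figure D2:**
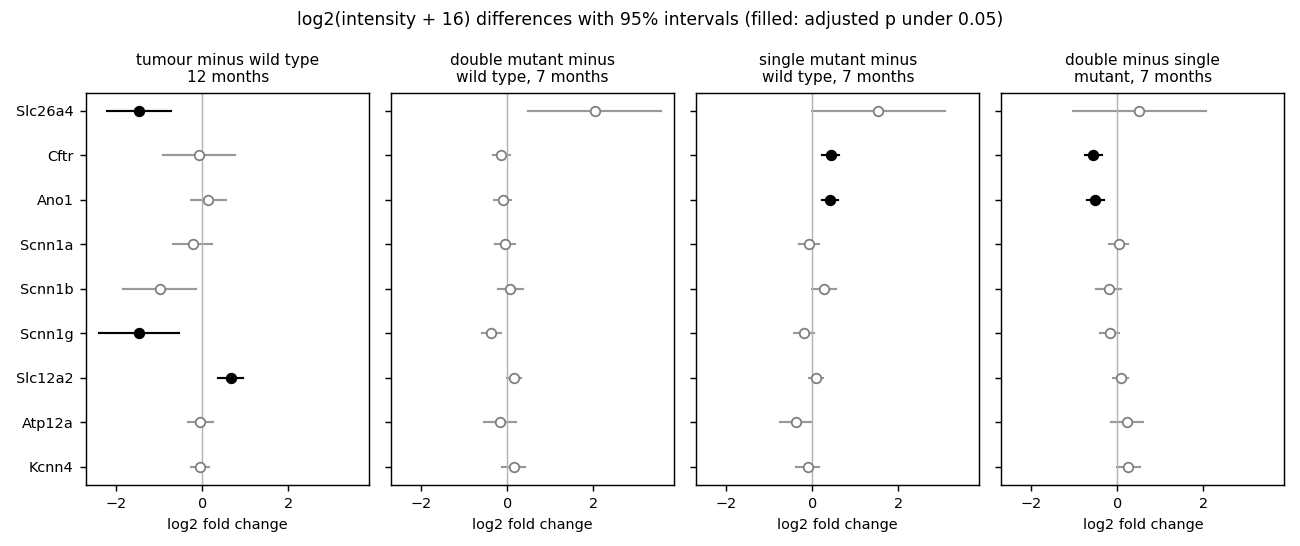
Log2 differences of the 9 genes with 95% intervals in each comparison, with the called ones marked. Slc26a4 has the widest intervals at 7 months and opposite signs in tumours (-1.47) and double mutant lungs (2.04), and the Cftr and Ano1 intervals lie above 0 in single mutant against wild type lungs and below 0 in double against single mutant lungs.

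Of the 3 sodium channel subunits 1 was called in tumours. The gamma subunit, Scnn1g, read 740, 743 and 269 in tumours, against 1486, 1565 and 1472 in wild type lungs of 12 months. Every tumour lay below every wild type lung, and tumour 3 lay far below the other two. Scnn1g fell 2.79-fold (-1.48 ± 0.38; interval -2.40 to -0.55), and its adjusted p of 0.04999 lay just under the threshold. The beta subunit, Scnn1b, read 669, 538 and 244 in tumours and 830, 972 and 910 in wild type lungs, also without overlap, but its difference of -0.99 ± 0.35 (interval -1.83 to -0.14) did not pass (adjusted p = 0.113). The alpha subunit, Scnn1a, read 468, 362 and 287 in tumours and 389, 417 and 486 in wild type lungs, which overlapped (-0.22 ± 0.19; interval -0.67 to 0.23; adjusted p = 0.478).

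At 7 months none of the 3 subunits was called in any comparison. Scnn1g read 1575, 1534 and 1301 in double mutant lungs and 1664, 1697 and 1633 in single mutant lungs, against 2130, 1725 and 1872 in wild type lungs. Wild type arrays were the highest, and the difference came closest to the threshold in double mutant lungs (-0.37 ± 0.10; interval -0.60 to -0.15; adjusted p = 0.0575), against -0.19 ± 0.10 in single mutant lungs (adjusted p = 0.248). Without wild type array 2 the Scnn1g difference in double mutant lungs was -0.44 with an adjusted p of 0.0440. Scnn1b read 1223, 1232 and 897 in double mutant lungs and 1244, 1294 and 1280 in single mutant lungs, against 1024, 974 and 1172 in wild type lungs. The single mutant arrays lay above all others, with a difference from wild type of 0.27 ± 0.13 (adjusted p = 0.202). The 7-month groups of Scnn1a overlapped, at 2586 ± 333 in double mutant, 2527 ± 4.96 in single mutant and 2682 ± 201 in wild type lungs (SD, n = 3 each).

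Scnn1a instead divided the 2 array sets. Its highest 12-month array, at 486, lay below its lowest 7-month array, at 2250. Taken as 7 minus 12 months, the wild type groups differed by 2.60 on the log2 scale, higher at 7 months, a 6.05-fold gap. Counting Scnn1a itself, 118 of 18193 genes (0.649%) had a gap this large or larger in either direction. All 7-month arrays lay above all 12-month arrays for 1131 genes (6.22%) and below them for 1743 genes (9.58%). Among the measured transport genes only Scnn1a was in the first of these groups and only Atp12a in the second. The age of the mice and the set in which the arrays were made cannot be told apart, and the 3 genes most like Scnn1a over the 15 arrays, Iqsec2, Rarg and Eif2ak1 (Pearson r 0.992 to 0.993), showed the same step, Rarg reading 85.4 ± 10.9 in wild type lungs of 12 months and 714 ± 42.3 in those of 7 months.

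Slc12a2, the chloride-loading cotransporter, rose in tumours. It read 4565, 5260 and 4064 there, against 2756, 2795 and 3164 in wild type lungs of 12 months. No arrays overlapped, and the tumours were 1.58-fold higher (0.66 ± 0.12; interval 0.37 to 0.96; adjusted p = 0.0196). At 7 months it read 3875, 3539 and 3557 in double mutant lungs, 3340, 3778 and 3318 in single mutant lungs and 3322, 3130 and 3381 in wild type lungs. Double mutant arrays lay above wild type arrays, by a difference that did not pass (0.16 ± 0.08; interval -0.02 to 0.33; adjusted p = 0.258), and single mutant and wild type arrays overlapped (0.08 ± 0.08; adjusted p = 0.527). The tumour effect exceeded the double mutant effect by 0.51 ± 0.14 (interval 0.21 to 0.80; adjusted p = 0.0660), which did not pass.

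Kcnn4, the calcium-activated potassium channel of intermediate conductance, was not called in any comparison. It read 246, 229 and 241 in tumours and 238, 239 and 270 in wild type lungs of 12 months, a difference of -0.06 ± 0.09 (interval -0.26 to 0.15; adjusted p = 0.706). At 7 months it averaged 235 ± 9.70 in double mutant, 195 ± 8.12 in single mutant and 213 ± 38.2 in wild type lungs. Double mutant arrays lay above single mutant arrays, by 0.25 ± 0.12 (adjusted p = 0.306).

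Atp12a, the proton pump, was the dimmest of the 9 genes and near the bottom of the range of the arrays. It read 28.9, 23.9 and 32.3 in tumours and 33.0, 32.0 and 24.2 in wild type lungs of 12 months (-0.04 ± 0.12; adjusted p = 0.853). At 7 months all arrays lay between 2.23 and 14.9, under the pseudocount of 16, with 13.7, 6.84 and 6.43 in double mutant, 2.23, 9.86 and 4.46 in single mutant and 14.9, 7.86 and 12.97 in wild type lungs. No comparison of Atp12a was called, and values this near the floor limit what the test can show.

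The calls in tumours also depended on single arrays. Leaving out tumour array 1, wild type array 1 or wild type array 2 removed all 3 calls (adjusted p 0.0622 to 0.0870 for Slc26a4, 0.0751 to 0.136 for Scnn1g and 0.0634 to 0.0702 for Slc12a2). Without wild type array 3 the calls of Scnn1g and Slc12a2 were lost (0.130 and 0.0521), and without tumour array 3 that of Slc26a4 (0.0700). The directions held in each of these fits, Slc26a4 staying between -1.83 and -1.23, Scnn1g between -1.72 and -1.01 and Slc12a2 between 0.57 and 0.75 over 17 fits. Against the single 12-month wild type lung without Xist, which like the tumours read Kdm5d (408 there, 430 to 467 in tumours), the differences were -1.83 for Slc26a4, -1.53 for Scnn1g and 0.72 for Slc12a2. With 1 wild type lung the spread between mice cannot be measured on that side, so these are a description.

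Genes with several probe sets gave a check within the arrays, fitted over all probe sets. Slc12a2 was higher in tumours by each of its 3 probe sets: 1017 ± 126 against 602 ± 19.2 in wild type lung by one (0.73 ± 0.11; adjusted p = 0.0171), and 955 ± 174 against 636 ± 19.9 by the other, which did not pass (0.56 ± 0.14; adjusted p = 0.0554). The second Ano1 probe set read 405 ± 17.5 in double mutant, 534 ± 40.4 in single mutant and 409 ± 27.5 in wild type lungs. It passed in single mutant against wild type lungs (0.37 ± 0.09; adjusted p = 0.0278), and not in double against single mutant lungs (-0.38 ± 0.09; adjusted p = 0.0730). The second Cftr probe set stayed between 2.2 and 9.7 on all arrays and carried no usable signal, so the Cftr rise rests on 1 probe set. The second Kcnn4 probe set was called in no comparison. Slc26a4 and the 3 sodium channel subunits had 1 probe set each, and in this wider fit Scnn1g in tumours had an adjusted p of 0.0616 and the Slc26a4 contrast between the sets one of 0.0503.

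**Figure D3:**
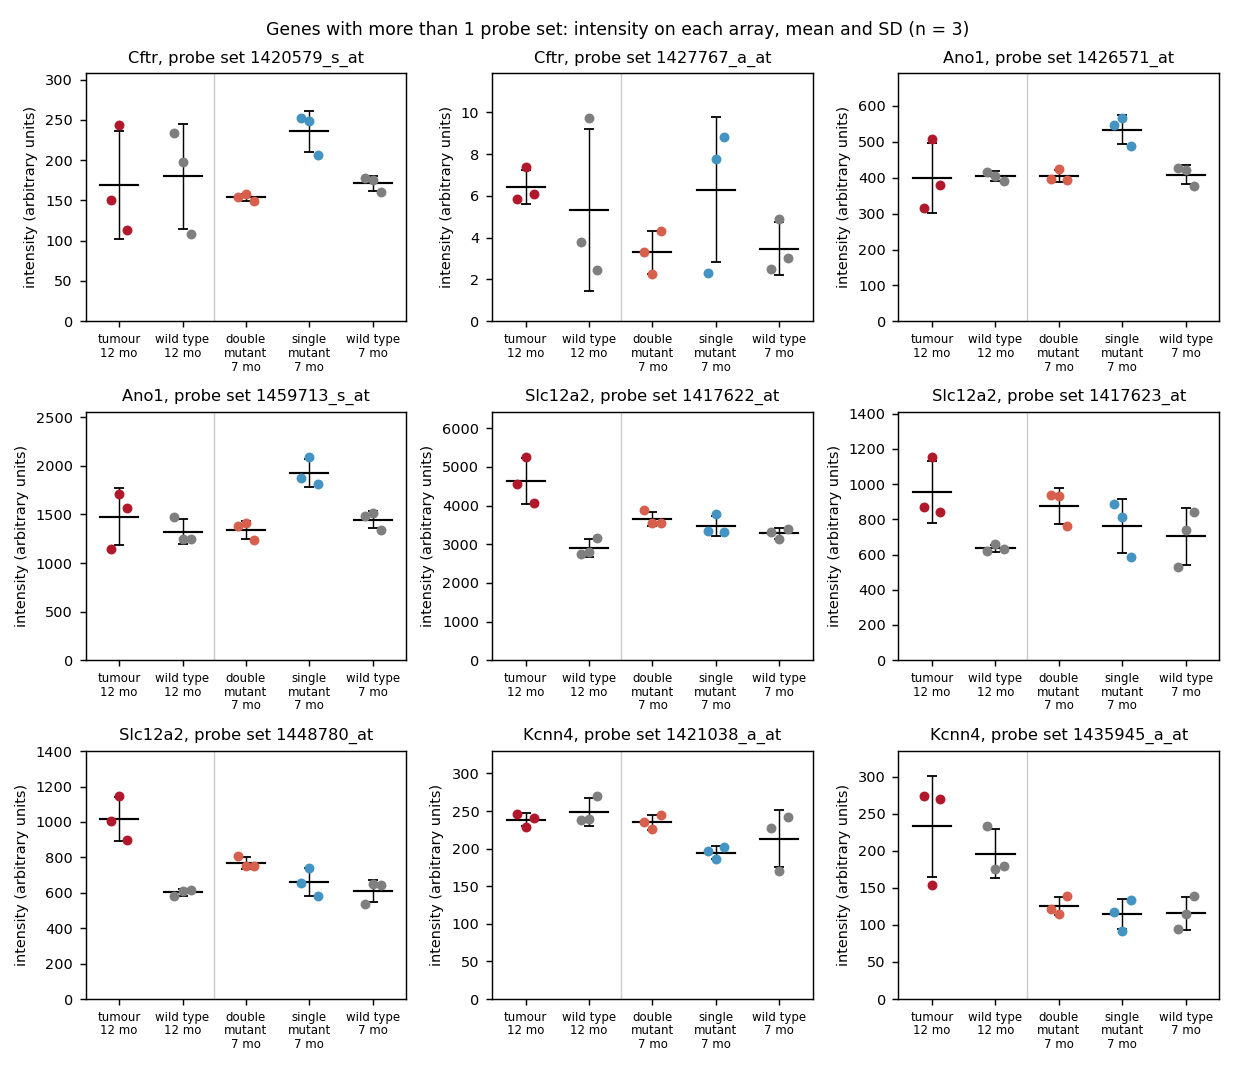
Intensity in arbitrary units on each array for every probe set of the 4 genes that had more than 1, with group mean and SD (n = 3). All 3 Slc12a2 probe sets are higher in tumours than in wild type lungs of 12 months, both Ano1 probe sets are highest in single mutant lungs at 7 months, and the second Cftr probe set stays near 0.

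The genes whose pattern over the 15 arrays was most like that of a transport gene were listed for the 5 genes whose group means spanned 1 or more on the log2 scale. The points share arrays and the step between the sets, so these are descriptions. Slc26a4 was closest to Retnla, a secreted resistin-like protein induced by type 2 cytokines (r = 0.892), to the sterol synthesis gene Cyp51 (0.844) and to Sat2 (0.830). Retnla read 6153 ± 2609 in tumours and 8807 ± 1979 in 12-month wild type lungs, and 7982 ± 2392 in double mutant, 6144 ± 590 in single mutant and 3564 ± 2085 in 7-month wild type lungs, the order of Slc26a4 within each set. Scnn1g was closest to Nebl (0.982), Col4a3 (0.980) and Sgip1 (0.979). Col4a3, a chain of basement membrane collagen, read 941 ± 511 in tumours and 2354 ± 148 in wild type lungs. Scnn1b was closest to Tex11 (0.957) and Nebl (0.948), with Scnn1g itself next (0.942). For Atp12a, Ankrd11, Hey2 and Gfap came first (0.945 to 0.961). Atp12a and Gfap were near the floor of the arrays, and Ankrd11 was bright, at 1890 ± 38.3 in tumours and 1989 ± 117 in wild type lungs of 12 months.

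Other genes of airway ion and water transport were taken as 8 lists of 76 genes, of which 69 were measured. In tumours 22 rose and 3 fell, in double mutant lungs 17 rose and 1 fell, and in single mutant lungs 18 rose and 4 fell. Their median differences were 0.12, 0.12 and 0.06 on the log2 scale. The background shares are those given above (9.23%, 6.42% and 9.79% of all genes higher, and 6.02%, 1.39% and 5.4% lower). They apply to the counts of each list below. Between double and single mutant lungs 2 rose and 1 fell, where 0.918% of all genes were called higher and 0.841% lower. In the contrast of the tumour effect with the double mutant effect 10 were higher and 1 lower, against 1.75% and 1.41% of all genes. The 9 genes above and these lists were chosen with earlier results of these data known.

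Of 14 other anion channels and exchangers, 2 rose in tumours, 1 rose in double mutant lungs, and 2 rose and 2 fell in single mutant lungs. Over all genes 9.23%, 6.42% and 9.79% were called higher in these comparisons, and 5.4% lower in single mutant lungs. Counts this small lie near such shares and are a description. Slc4a4, the basolateral sodium bicarbonate cotransporter, rose in each of these groups: it read 949 ± 137 in tumours against 395 ± 58.1 in wild type lungs (2.35-fold; adjusted p = 0.00781), and 561 ± 69.2 in double mutant and 716 ± 33.4 in single mutant against 405 ± 9.40 in wild type lungs (1.36-fold and 1.74-fold; adjusted p = 0.0196 and 0.000783). The chloride-proton exchanger Clcn3 rose 1.31-fold in tumours, and the anion channel Best1 read 82.7 ± 9.63 in single mutant against 49.5 ± 4.89 in wild type lungs. Lrrc8a, a subunit of the volume-regulated anion channel, fell 1.41-fold in single mutant lungs, at 2096 ± 46.9 against 2966 ± 62.1 in wild type.

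Among 11 cation pumps, exchangers and their subunits, 5 rose and 2 fell in tumours and 4 rose in each mutant group at 7 months. Fxyd3 and Fxyd4, small subunits that regulate the sodium pump, rose 4.76-fold and 7.82-fold in tumours (2986 ± 582 against 616 ± 130, and 412 ± 167 against 36.3 ± 3.88 in wild type). Fxyd3 also rose 1.91-fold in double mutant lungs, where it was 1.62-fold above single mutant lungs (adjusted p = 0.0214). Atp6v1b1, a proton pump subunit of acid-secreting epithelia, rose 3.10-fold in tumours, 1.40-fold in double mutant and 1.55-fold in single mutant lungs, and Atp6v1c2, another proton pump subunit, 1.59-fold in double mutant and 1.55-fold in single mutant lungs. The sodium-proton exchanger Slc9a2 rose 1.79-fold in single mutant lungs (72.2 ± 10.8 against 33.0 ± 1.82) and was 1.67-fold lower in double mutant than in single mutant lungs (adjusted p = 0.00730), the direction of Cftr and Ano1. Atp6v0d2, a proton pump subunit found in osteoclasts and macrophages, fell 5.81-fold in tumours (1019 ± 550 against 5280 ± 769); it, Sgk1 below and Atp6v1b1 in double mutant lungs were named after their values were seen.

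Of 10 potassium channels and their subunits, 4 rose in tumours, 2 in double mutant lungs and 3 in single mutant lungs, and none fell. Kcne3, a beta subunit that holds the channel Kcnq1 open in secreting epithelia, read 808 ± 328 in tumours against 42.7 ± 24.9 in wild type lungs (14.2-fold; adjusted p = 0.00573). Kcnk1, a 2-pore potassium channel, rose 2.73-fold and Lrrc26, a subunit of the large-conductance channel, 5.79-fold. Lrrc26 was also called in double mutant (304 ± 53.6) and single mutant lungs (298 ± 43.8), against 196 ± 15.4 in wild type lungs. Kcnj15, an inward rectifier, rose 1.32-fold in both double mutant and single mutant lungs. Of 4 aquaporins, Aqp4 and Aqp3 rose in tumours (8.72-fold and 4.76-fold) and in double mutant lungs (6.04-fold and 2.30-fold), while in single mutant lungs Aqp4 rose 2.71-fold and Aqp1 fell 1.30-fold. Aqp3 was 2.22-fold higher in double than in single mutant lungs (adjusted p = 0.0432).

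Genes that regulate the sodium channel numbered 11. In tumours 5 rose and 1 fell, in double mutant lungs 4 rose, and in single mutant lungs 5 rose and 1 fell. Tmprss4, a membrane protease that can activate the channel, rose 2.13-fold, 2.25-fold and 2.41-fold in tumours, double mutant and single mutant lungs, St14, another membrane protease, 2.35-fold, 1.59-fold and 1.44-fold, and their inhibitor Spint1 1.74-fold, 1.45-fold and 1.33-fold. Sgk1, a kinase that raises channel number at the surface, fell in tumours to 3984 ± 552 against 7389 ± 494 in wild type lungs (1.86-fold; adjusted p = 0.00998), and in single mutant lungs 1.31-fold.

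Of 10 genes that regulate Cftr or the cotransporter, 4 rose in tumours, 4 in double mutant and 2 in single mutant lungs, with none lower. Stk39, a kinase that activates the product of Slc12a2, rose 2.73-fold in tumours (338 ± 48.0 against 114 ± 18.6). Ezr and Vipr1, a membrane linker and a receptor that raises cAMP, rose 1.58-fold and 2.88-fold. Wnk4, a kinase upstream of Stk39, rose 1.64-fold in double mutant and 1.66-fold in single mutant lungs, and Slc9a3r1, a scaffold that binds the tail of CFTR, 1.47-fold and 1.29-fold. Among 5 peroxide and thiocyanate genes Duoxa2 fell 1.56-fold in double mutant lungs, at low signal (22.3 ± 6.35 against 43.5 ± 5.07). Of 4 carbonic anhydrases Car2 rose 1.32-fold in single mutant lungs, and none was called in the other 2 comparisons with wild type.

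**Figure D4:**
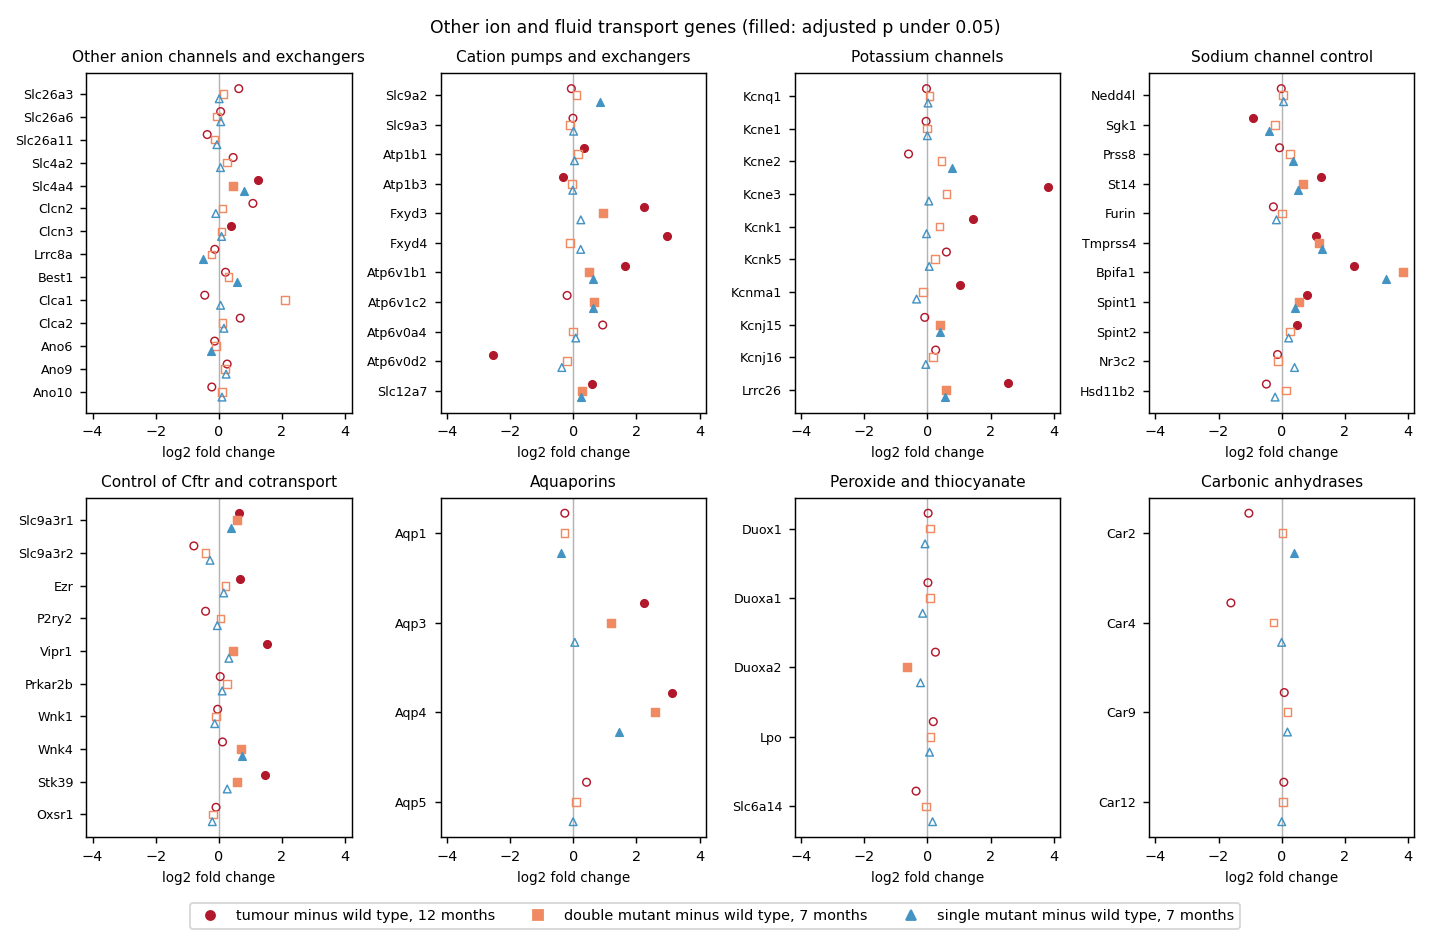
Log2 differences of the measured genes of the 8 transport lists, 1 point per gene, in tumours, double mutant and single mutant lungs, each against wild type lungs of its age. Called genes lie mostly above 0 in every comparison, with Kcne3 (14.2-fold) the farthest in tumours and Atp6v0d2 (5.81-fold lower) the farthest below 0.

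Markers of cell types that can carry these transporters were counted in the same comparisons, and their part in the results above was not tested. Of all genes, 9.23% were called higher in tumours, 6.42% in double mutant and 9.79% in single mutant lungs. All 10 ciliated cell markers rose in tumours, in double mutant and in single mutant lungs, with summed intensities of 12304 to 19062 in tumours against 4979 to 6665 in wild type lungs of 12 months, and of 7272 to 8642 in double mutant and 7385 to 8066 in single mutant against 3350 to 3450 in wild type lungs of 7 months. Of 7 mucous cell markers, 7, 4 and 3 rose in the same comparisons, and of 6 basal cell markers, 6, 2 and none by limma. Their sums were 18101 to 23087 in tumours against 1720 to 5006 in wild type for mucous markers, and 2482 to 6359 against 123 to 172 for basal markers, of which Krt14 and Krt17 averaged under 16 in wild type and single mutant lungs. All 5 general epithelial markers rose in tumours (21472 to 24376 against 11242 to 12381). Of 7 club cell markers 2 rose in tumours and 4 in each mutant group at 7 months (61687 to 64703 in double mutant and 60256 to 61692 in single mutant against 54518 to 56865 in wild type). Between double and single mutant lungs 1 mucous marker (Agr2) and 1 basal marker (Krt15) were called higher, where 0.918% of all genes were. No ciliated, club or general epithelial marker was called there.

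Markers of alveolar and other lung cells were counted beside the fall of Scnn1g, where 6.02% of all genes were called lower in tumours, 1.39% in double mutant and 5.4% in single mutant lungs. Of 8 type 1 cell markers 2 fell in tumours, Spock2 and Cav1, with sums of 17981 to 31226 against 35987 to 39472 in wild type lungs, and 2 fell in double mutant lungs (38199 to 43082 against 47075 to 47812). None of 7 type 2 cell markers passed in tumours or double mutant lungs (41619 to 63646 in tumours against 60682 to 62617), while in single mutant lungs 2 rose and 1 fell. Of 5 endothelial markers 3 fell in tumours (4972 to 6442 against 7398 to 8460) and 2 fell in each mutant group at 7 months. Macrophage markers, 2 of 5 lower, summed to 7014 to 8291 in tumours against 14115 to 18100, beside the fall of Atp6v0d2.

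Ionocytes, the rare airway cells rich in Cftr, had 7 markers on the arrays, and none was called higher in any comparison with wild type. Their transcription factor Foxi1 read 51.4 ± 25.5 in tumours and 17.7 ± 3.84 in wild type lungs (adjusted p = 0.0973), and 24.6 ± 2.57 in double mutant, 21.1 ± 3.38 in single mutant and 20.4 ± 2.35 in wild type lungs of 7 months, where Moxd1 and Bsnd averaged under 16. In tumours Moxd1 read 90.0 ± 73.7 against 17.8 ± 5.13 in wild type lungs (limma, adjusted p = 0.0790). Ascl3, Bsnd and Stap1 also had higher means in tumours and were not called. The 2 of the 7 that fell in tumours, Pparg (183 ± 53.0 against 623 ± 60.0) and Cd9 (5504 ± 364 against 7226 ± 462), are also known from macrophages and many other cells. Smooth muscle and pacemaker-like cells also express Ano1, and their part in its rise was not tested. In single mutant lungs 2 of 6 smooth muscle markers fell, Tagln and Des, with sums of 8288 to 9645 against 11048 to 13461 in wild type. Of 5 interstitial and mast cell markers none was called there (Kit 1329 ± 81.4 against 1315 ± 195). Apart from Kit these markers were mast cell genes, so pacemaker-like cells were read from Kit alone. In tumours 3 of these 5 were called, Cpa3 and Cma1 higher and Kit lower. All 5 cardiac muscle markers rose in tumours (15561 to 18649 against 5609 to 7990), and Nppa alone of them in double mutant lungs. Of 4 T cell markers Cd2 fell in tumours and none was called at 7 months. Beside the counts of this paragraph, 9.23% of all genes were called higher and 6.02% lower in tumours. In double mutant lungs 6.42% were called higher, and in single mutant lungs 5.4% lower.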

How the data were processed

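Per the labels' protocols, TRIzol extracts were passed over RNeasy columns and labelled with biotin by the Affymetrix 3' IVT Express protocol, which reads mostly 3' ends. The values deposited by the authors are intensities per probe set on a linear scale, from 0.48 to 17030; scanning, background correction, summarization and scaling: not given in the sources used here, and between 17.1% and 21.1% of values per array lie under 16. The number of arrays, 3 per group, limits the precision.

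Gene names came from the platform annotation: 34945 had 1 symbol, 932 several and 9211 none. Those with several and controls were left out. Each gene took its probe set with the highest mean log2(intensity + 16) over 15 arrays, which left 18193 genes. Differences and fold changes are on that log2 scale, with a pseudocount of 16, and understate changes of dim genes. They were tested with limma 3.58.1 in R 4.3.3 (lmFit, eBayes, two-sided, Benjamini-Hochberg, adjusted p under 0.05), on the 6 arrays of 12 months, on the 9 of 7 months in 1 model, and on all 15 for the contrast between the sets; SDs are of intensities. The fits were also run on simulated data with independent noise for each gene. Effects shared within an array, a sex or a set were not simulated. No 2 arrays were identical.

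The members and lists were chosen with earlier results of these data known. Named are all members, for each transport list at most the 3 called genes with the smallest adjusted p per comparison, and the 3 genes most correlated with each member spanning at least 1. Alternatives covered scaling, pseudocount, dim genes, probe set choice, variance model, array weights, arrays in the fit, single arrays left out, Xist and a replicate block. The second gene of the genotypes is not reported here.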

Additional observations from a re-analysis of the deposited data

Results flagged for a closer look

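The effect on Slc26a4 differed between the 2 sets by a test of the difference itself. The tumour effect at 12 months minus the double mutant effect at 7 months was -3.51 on the log2 scale (limma over all 15 arrays, adjusted p = 0.0436), with the gene lower in all 3 tumours and higher in all 3 double mutant lungs than in wild type lungs of their age. Over 21 other fits it stayed between -4.07 and -2.79 and was called in 10 of them. The wild type difference of -2.30, 7 minus 12 months, enters this contrast, and age and array set cannot be told apart in it. Mean log2 values were 8.07 in tumours and 9.54 in wild type lungs of 12 months. At 7 months they were 9.29 in double mutant and 7.25 in wild type lungs. The double mutant effect by itself did not pass the test. Fitted over all probe sets, the contrast had an adjusted p of 0.0503 (limma).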

How the results depend on the processing

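Over 823 results of single genes under alternatives none reversed a call; 767 kept their side of the threshold, 44 lost it and 12 gained it, and 16 had the opposite sign where neither value was called. Leaving out single arrays, the number of the 9 genes called ranged from 0 to 3 in tumours, 0 to 1 in double mutant and 0 to 2 in single mutant lungs against wild type, 0 to 1 in double against single mutant lungs and 0 to 2 in the contrast between the sets. In double mutant against wild type lungs the count was 1 (Scnn1g lower) with a pseudocount of 64, with dim genes left out and with a variance trend and robust fitting. With all 15 arrays in 1 model it was 0 in single mutant lungs and 0 in double against single mutant lungs. In the contrast it was 2 with quantile normalization, a pseudocount of 64 or dim genes left out (Slc12a2 added) and 0 with a pseudocount of 1, where the adjusted p of Slc26a4 was 0.0725; a variance trend with robust fitting exchanged Slc26a4 (0.0529) for Slc12a2 (0.0354). In tumours Scnn1g was lost with a pseudocount of 1 (0.0745) and with the mean of all probe sets (0.0508), and with all 15 arrays in 1 model Slc26a4 was lost (0.0880) and Scnn1b gained (0.0140). Apart from these constructions the cause was not tested. The replicate numbers of the 7-month labels do not pair the samples (same-number correlations of -0.128 to 0.161 over 9 pairs, the best match in 4); with them as a replicate block 0, 2 and 2 genes were called in double mutant, single mutant and double against single mutant lungs, as without it. Atp12a was left out among dim genes, where 13230 genes were tested. Leaving out wild type array 3 of 7 months, the one without Xist, was also repeated by name after seeing the data. Brightness near the floor limits Atp12a, and 3 arrays per group limit the rest.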
